A study of Mus musculus with 15 samples.

Results

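Glutamine supply and amino acid transport were followed through 8 genes of the mouse stomach: Glul, Gls2, Slc1a5, Slc38a2, Slc3a2, Slc7a5, Slc7a11 and Slc43a2. They are 8 of the 36144 genes in the count table, taken by symbol, and they were chosen by measured values of these same libraries, their levels in tumors and in normal stomach, which were known when the list was drawn up. Their differences between tumor and normal stomach are therefore given as values with errors and without p-values, and a count of members past a threshold is printed there only as a description. All 8 passed the filter on low counts, which left 16224 genes.

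The study profiled bulk RNA from stomach tumors that arise after recombination in cells expressing Pou2f3, the transcription factor that specifies tuft cells. Every sample, normal tissue included, came from C57BL/6 mice carrying the inducible driver Pou2f3-CreERT, floxed tumor suppressors (Rb1fl/fl and Trp53fl/fl) and the Myc allele LSL-MycT58A, aged 7 to 8 weeks, taken 5 weeks after tamoxifen was injected into the peritoneum at 50 mg/kg on a single day. The 5 groups of 3 samples were normal stomach and tumors of the antrum, of the corpus, and of the cardia at the boundary of its greater curvature and at the boundary of its lesser curvature. The Cre driver confines recombination to cells that express Pou2f3, the controls carry the same alleles and drug, and the part of the stomach that gave the normal samples is not named. The 3 samples of a group are labelled as biological replicates 1 to 3, but no label says whether they came from separate animals, so a p-value here reflects only how far these samples scatter.

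Glutamine is the most abundant free amino acid in blood and gives cells nitrogen for nucleotides, asparagine and hexosamines, and carbon through glutamate. Glutamine synthetase makes it from glutamate and ammonia, and the glutaminases turn it back into glutamate in mitochondria. Cells bring it in through sodium-coupled carriers, and some of it leaves again through exchangers that bring in leucine and other essential amino acids, which in turn are sensed by the kinase complex mTORC1. Myc is known in many cell types for raising glutamine uptake and breakdown.

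The upstream sequences are shown because the stress factor ATF4, the antioxidant factor NRF2 and Myc itself bind short motifs near the starts of genes of this kind. The RefSeq promoter table (GRCm38.p6, 250 bases before to 50 after each start) held 5 of the 8 genes, in 6 windows of 300 bases, and did not list Gls2, Slc1a5 or Slc7a5. Capitals mark the matches of 1 motif for each gene, on either strand, in the 100 bases next to the start, written 5′ to 3′ along the gene's own strand. Slc7a11 (chr3:50443614-50443713, minus strand) holds the C/EBP-ATF motif TGATGNAA in opposite orientations, at 66 to 59 and at 47 to 40 bases upstream. Slc38a2 (chr15:96699729-96699828, minus strand) holds the antioxidant core TGACNNNGC at 27 to 19 bases upstream, and a GC box at 35 to 30 bases that is left in lower case. Slc3a2 (chr19:8713898-8713997, minus strand) and Glul (chr1:153899829-153899928, plus strand) are shown with the GC box GGGCGG.
Slc7a11: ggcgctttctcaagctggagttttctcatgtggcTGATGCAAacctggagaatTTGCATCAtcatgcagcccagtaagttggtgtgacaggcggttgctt
Slc38a2: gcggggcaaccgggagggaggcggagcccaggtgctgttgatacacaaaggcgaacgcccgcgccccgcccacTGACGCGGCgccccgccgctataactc
Slc3a2: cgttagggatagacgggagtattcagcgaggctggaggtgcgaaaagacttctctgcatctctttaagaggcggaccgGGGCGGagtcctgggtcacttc
Glul: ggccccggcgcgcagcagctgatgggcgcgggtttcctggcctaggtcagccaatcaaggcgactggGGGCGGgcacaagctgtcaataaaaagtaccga

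Of 32851 promoter windows of the same length in the table, 3.97% held TGATGNAA, 12.4% held TGACNNNGC and 35.7% held GGGCGG. Among the 5 genes, these were matched by 1, 1 and 4 genes. The Myc E-box CACGTG was in 7.15% of all windows and in 0 of the 6 windows here. A match describes letters only, and a window without one says nothing about the factor.

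Library totals ran from 7957165 counts (lesser curvature tumor 2) to 21564972 (greater curvature tumor 2), and counts were scaled to CPM, counts per 1e+06, with edgeR's trimmed mean factors. On the first principal component, which held 46.9% of the variance, greater curvature tumor 2 and corpus tumor 1 lay among the normal samples, and results that rest on them are given with and without them. The summed CPM of 7 parietal cell markers was 4363 to 8299 in normal stomach and 18.3 to 6794 in tumors, and 8 smooth muscle markers summed to 4392 to 6318 against 187 to 1142. Normal replicate 2 alone among the normals carried squamous markers (5857 against at most 2.13 summed CPM). Myc was higher in tumors (log2 fold change 2.13 ± 0.56 (SE), edgeR quasi-likelihood test with Benjamini-Hochberg adjustment, adjusted p = 0.0158), while Rb1 (-0.22, adjusted p = 0.372 by the same test) and Trp53 (0.31, adjusted p = 0.377) did not pass. Gene totals also count transcripts that lack only a floxed part, so these values do not check the deletion. In bulk tissue, fewer cells of a type and less RNA per cell cannot be told apart.

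Read per transcript length as TPM, transcripts per 1e+06, which allows genes to be ranked against each other, Glul was the most abundant of the 8 in both tissues. Its mean was 504 ± 139 TPM (SD, n = 3) in normal stomach and 189.6 ± 101 in tumors (SD, n = 12). Slc3a2 came second in both, at 94.2 ± 10.9 and 127 ± 28.6 TPM. Gls2 stood last in normal stomach at 2.58 ± 2.46 TPM, and in tumors it reached 53.5 ± 38.1, above Slc43a2 (16.2 ± 7.13) and Slc7a11 (2.03 ± 0.80), which was last there. Its tumor values overlapped those of Slc7a5 (64.1 ± 38.1 TPM).

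**Figure D1:**
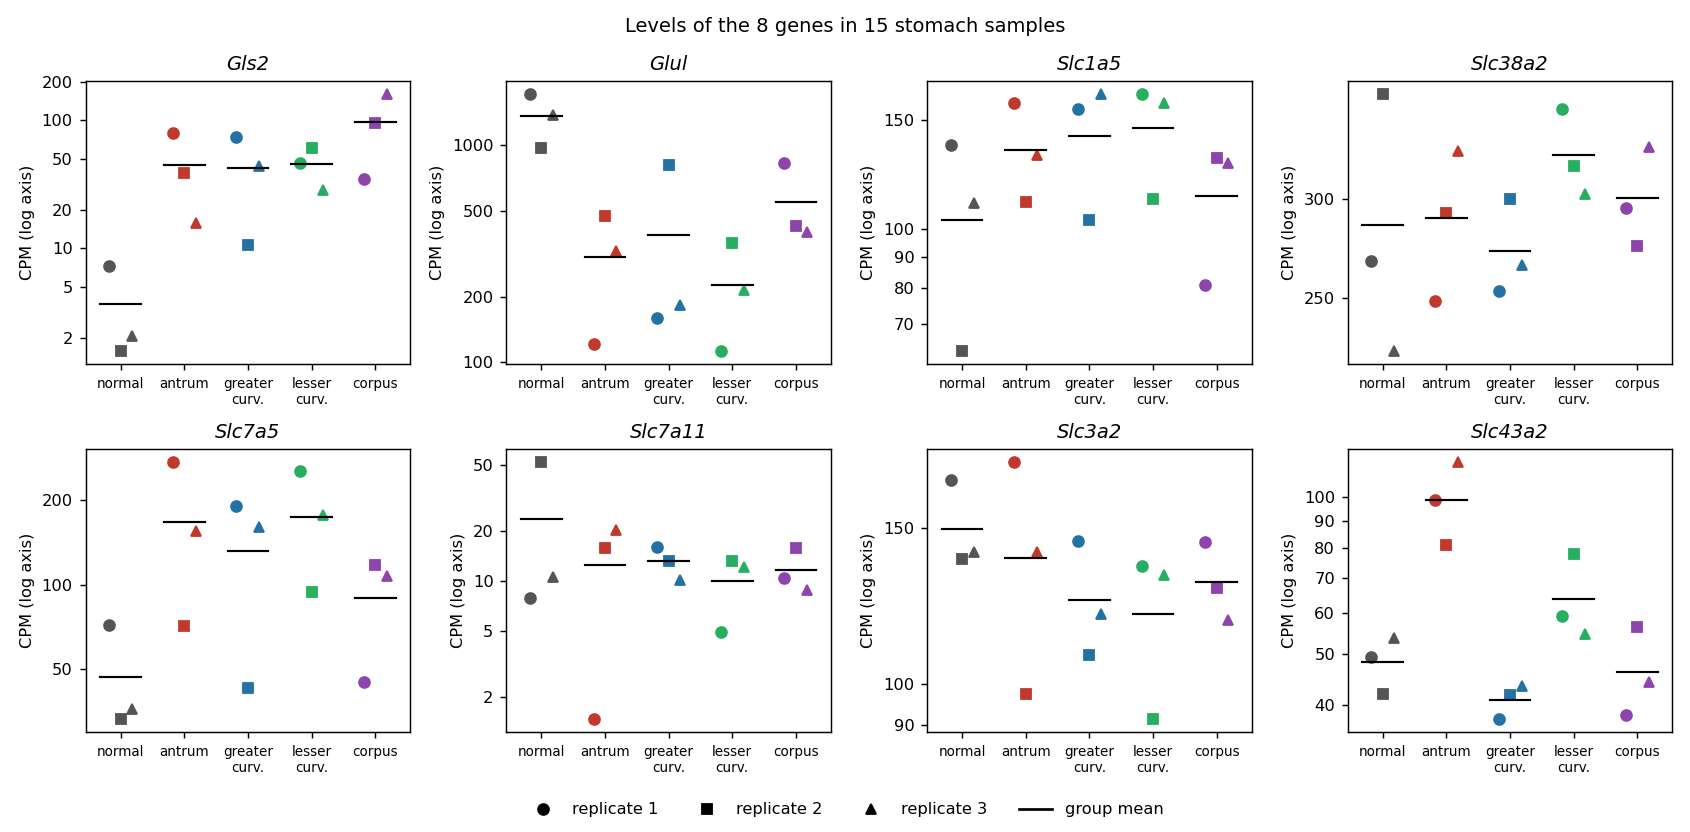
CPM (log axis, a scale of its own in each panel) of the 8 genes in each of the 15 samples, by group, with replicate 1 as circles, replicate 2 as squares, replicate 3 as triangles and the group mean as a bar. Gls2 in all 12 tumors lies above the 3 normal samples, Glul in all 12 lies below them, and Slc43a2 is highest in the 3 antrum tumors.

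Glul (chr1:153899944-153909723, plus strand, GENCODE M21 on GRCm38) encodes glutamine synthetase, the only mammalian enzyme that makes glutamine. In normal stomach it was measured at 1726, 968 and 1383 CPM in replicates 1 to 3. The antrum tumors had 122, 471 and 325 CPM, the greater curvature tumors 159, 815 and 184, the lesser curvature tumors 112, 356 and 214, and the corpus tumors 826, 426 and 399. Every tumor lay below every normal sample, with corpus tumor 1 and greater curvature tumor 2 closest to them. The means were 1359 ± 379.9 (SD, n = 3) and 367 ± 244 CPM (SD, n = 12). On the log2 scale the difference was -1.96 ± 0.47 (SE), a 3.9-fold lower level, and -2.36 without those 2 tumors. The same 2 tumors had the highest parietal marker sums of the 12, 2884 CPM in greater curvature tumor 2 and 6794 in corpus tumor 1. They also had the highest sums of chief cell markers (44886.5 and 81783 CPM) and of pit and neck mucous markers (66783 and 89566). The part of any of these cell types in the Glul values was not tested. By site the differences were -2.15 in the antrum, -1.81 at the greater curvature, -2.58 at the lesser curvature and -1.30 in the corpus, all against the same 3 normal samples.

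Gls2 (chr10:128194457-128210004, plus strand) encodes the liver-type glutaminase, which is known in many tissues as a p53 target. Its normal values were 7.35, 1.57 and 2.06 CPM, resting on 100, 18 and 27 counts. The antrum tumors had 80.5, 38.9 and 15.8 CPM, the greater curvature tumors 74.1, 10.5 and 43.9, the lesser curvature tumors 46.7, 60.6 and 28.6, and the corpus tumors 34.9, 96.3 and 161. Every tumor lay above the highest normal sample, the lowest being greater curvature tumor 2 and the highest corpus tumor 3, a 15.3-fold span. The means were 3.66 ± 3.20 and 57.7 ± 41.6 CPM, a log2 difference of 3.87 ± 0.85 (SE), or 14.7-fold. It was 4.89 without normal replicate 1, which had the highest normal value, and 4.09 without the 2 tumors that lay among the normals. By site it was 3.61 in the antrum, 3.54 and 3.62 at the greater and lesser curvature, and 4.73 in the corpus, each against the shared normals.

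Gls2 and Glul were the only members called at an edgeR adjusted p under 0.05 in all tumors against normal, 1 higher and 1 lower. Over all 16224 genes, 16.2% were called higher and 15.7% lower, and nothing is read from the count, since the genes were chosen with this contrast known. Groups that do not overlap were as frequent as 9.58% of genes for all 12 tumors above the normals and 6.65% for all 12 below. Without normal replicate 1, Glul was not called. On TPM with limma, where the median of all genes moved to 0.43, Slc1a5, Slc38a2, Slc7a5 and Slc43a2 were called higher beside Gls2, 5 in all, and Glul lower. In that setting 37.3% of all genes were called higher and 3.58% lower.

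Set against each other per length, Gls2 stood at 0.00849, 0.00219 and 0.00303 of Glul in the 3 normal samples. The tumors ran from 0.0202 in greater curvature tumor 2 through a median of 0.342 to 1.08 in antrum tumor 1, so every tumor lay above every normal sample. The means were 0.00457 ± 0.00342 (SD, n = 3) and 0.408 ± 0.342 (SD, n = 12). Antrum tumor 1 was the only sample with more Gls2 than Glul by this measure.

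Slc1a5 (chr7:16781340-16798274, plus strand) encodes ASCT2, a sodium-coupled exchanger that carries glutamine into the cell. Normal samples had 137, 63.2 and 109.9 CPM, a 2.16-fold spread. The tumors ran from 81.0 (corpus tumor 1) through a median of 131 to 165 CPM (lesser curvature tumor 1). Only 5 of 12 lay above all normals and 0 below, and the log2 difference was 0.37 ± 0.25 (SE).

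Slc38a2 (chr15:96687392-96699730, minus strand) encodes SNAT2, the sodium-coupled carrier of small neutral amino acids that cells raise when amino acids run short. Over the tumors it was the steadiest of the 8, at 249 to 354 CPM (median 297). Normal stomach had 267, 364 and 227 CPM, a 1.61-fold spread, wider there than Slc3a2 (1.23-fold) and Slc43a2 (1.28-fold). No tumor lay outside the normal range, and the log2 difference was 0.05 ± 0.15 (SE). On TPM it was 0.62, and 0.19 relative to the median of all genes. The span over the 12 tumors was 1.42-fold, while Glul spanned 7.36-fold and Slc7a5 6.37-fold.

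Slc3a2 (chr19:8706882-8723369, minus strand) encodes 4F2hc, the heavy chain that carries the light chains LAT1 and xCT to the plasma membrane. It had 169.8, 138 and 141 CPM in normal stomach and 91.3 to 178 in tumors (median 131). 8 of 12 tumors lay below all normals and 1, antrum tumor 1, above, with a log2 difference of -0.22 ± 0.18 (SE). On the TPM scale the difference was 0.40, but there the median of all genes moved by 0.43, and relative to that median it was -0.03.

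Slc7a5 (chr8:121881150-121907694, minus strand) encodes the light chain LAT1, which exchanges intracellular glutamine for leucine and other large neutral amino acids. Normal samples had 71.8, 33.1 and 36.0 CPM. The antrum tumors had 274, 71.2 and 156, the greater curvature tumors 191, 43.0 and 161, the lesser curvature tumors 253, 94.4 and 177, and the corpus tumors 45.1, 117 and 108. The 3 that did not exceed normal replicate 1 were antrum tumor 2, greater curvature tumor 2 and corpus tumor 1, and 0 of 12 lay below all normals. The log2 difference was 1.54 ± 0.55 (SE), or 2.90-fold, and 1.72 without the 2 tumors that lay among the normals. By site it was 1.83 in the antrum, 1.48 and 1.90 at the greater and lesser curvature, and 0.94 in the corpus. It was called only at the lesser curvature and, over all tumors, under some alternatives (DESeq2 and the replicate block among them).

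Slc7a5 was then set against its heavy chain. Per length, it stood at 0.145 ± 0.0552 (SD) of Slc3a2 in normal stomach, with 0.209, 0.108 and 0.119 in the samples, and at 0.468 ± 0.196 in tumors. The tumor ratios ran from 0.139 in corpus tumor 1 to 0.800 in lesser curvature tumor 1. Corpus tumor 1 and greater curvature tumor 2 (0.171) were the tumors within the normal range.

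Slc7a11 (chr3:49892526-50443614, minus strand) encodes xCT, which brings in cystine for glutathione in exchange for glutamate. It was low in nearly every library: 7.86, 52.0 and 10.6 CPM in normal stomach and 1.48 to 20.2 in tumors (median 12.6). The high value was normal replicate 2, the sample with squamous markers, whose part in the result was not tested. The log2 difference was -0.99 ± 0.61 (SE) with normal replicate 2 and 0.36 without it, so its direction rests on 1 library. Antrum tumor 1 held 24 counts, the fewest of all samples, and antrum tumor 3 the most among tumors. Slc7a11 stood at 0.0171 ± 0.00762 of Slc3a2 per length in tumors, below the ratio of Slc7a5 to the same heavy chain.

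Slc43a2 (chr11:75531694-75577575, plus strand) encodes LAT4, a carrier that lets large neutral amino acids pass without exchange or sodium. Normal samples had 49.4, 42.0 and 53.8 CPM. The antrum tumors had 98.5, 80.9 and 117, the lesser curvature tumors 59.2, 77.8 and 54.6, the corpus tumors 38.3, 56.3 and 44.2, and the greater curvature tumors 37.6, 41.8 and 43.4. All 3 antrum tumors lay above the other 9 tumors, which reached 77.8 CPM, and above the normals. The share of all genes that set 1 site apart in this way was not counted. Over all tumors the log2 difference from normal was 0.28 ± 0.16 (SE), made up of 1.03 in the antrum, 0.40 at the lesser curvature, -0.06 in the corpus and -0.24 at the greater curvature.

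**Figure D2:**
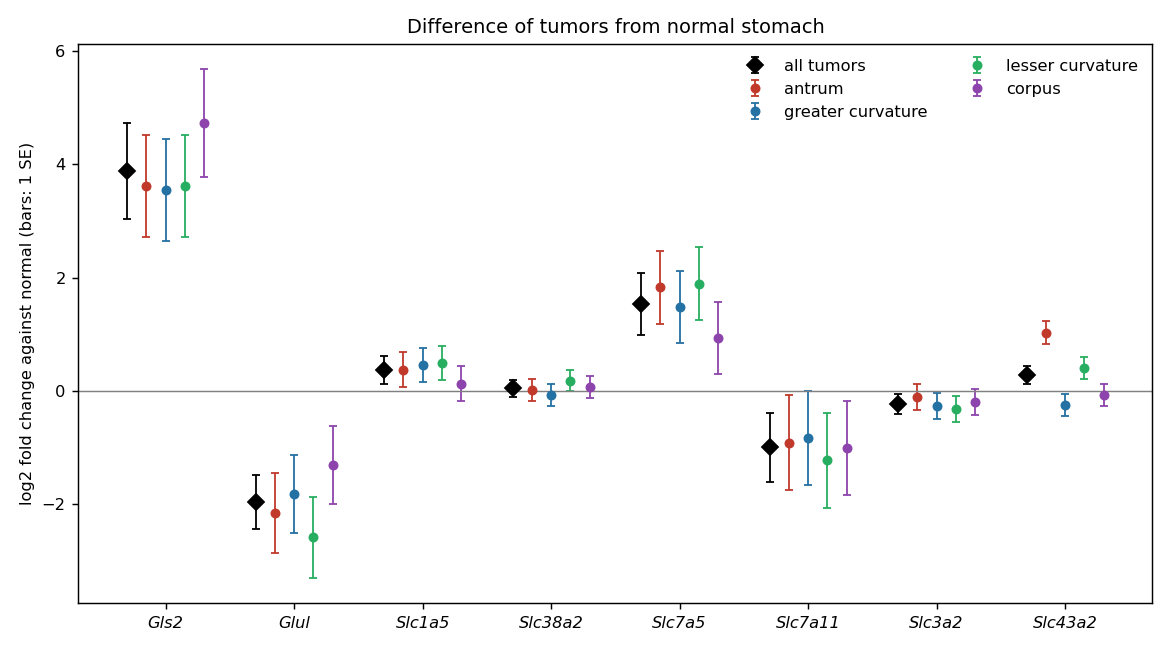
Log2 fold change against normal stomach of each of the 8 genes for all 12 tumors (black diamonds) and for each site (colored circles, n = 3 tumors each), with bars of 1 SE and a line at 0. Gls2 lies between 3.54 and 4.73 and Glul between -2.58 and -1.30. Slc38a2 and Slc3a2 stay near 0, and the sites of Slc43a2 lie on both sides of 0.

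Within sites against the shared normals, members were called in every site. In the antrum, Gls2 and Slc43a2 were called higher (2 of 8; 9.59% of all genes) and 0 lower (5.08%). At the greater curvature Gls2 was called higher (1 of 8; 6.5% of all genes) and 0 lower (2.76%). At the lesser curvature Gls2 and Slc7a5 were called higher (2 of 8; 18.2%) and Glul lower (1 of 8; 15.3%). In the corpus Gls2 was called higher (1 of 8; 2.35%) and 0 lower (1.19%). These counts describe the choice of genes and support nothing.

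Comparisons among tumor sites set only tumors against each other, but the normal samples enter the same fit through its filter, scaling and estimate of spread. The tumor levels were also known when the genes were chosen, so these tests describe these libraries and are not independent evidence. By edgeR, 0 of 8 were called among the 4 sites (0% of 16224 genes called), and 1, Slc43a2, had an unadjusted p under 0.05, while DESeq2 called 1, again Slc43a2. The share of all genes that DESeq2 called among sites was not counted. In all tumors against normal DESeq2 called more genes than edgeR, 22.1% higher and 19.1% lower against 16.2% and 15.7%. Antrum tumors against the other sites differed in Slc43a2 by 1.0 ± 0.15 (SE) on the log2 scale, a 2.0-fold higher level, with an edgeR adjusted p of 0.171 and a DESeq2 adjusted p of 3.58e-07. The test among all 4 sites gave edgeR adjusted p = 0.467 and DESeq2 adjusted p = 1.43e-07. The other tests between sites called 0 of 8 by edgeR as well: each of the greater curvature (0% of all genes called), the lesser curvature (0.00616%) and the corpus (0%) against the rest, and greater against lesser curvature (0%). In these, Slc43a2 had an unadjusted p under 0.05 in all but the lesser curvature comparison, where 0 of 8 did.

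Gls2 was highest in the corpus by mean (97.5 ± 63.2 CPM, SD, n = 3), with 2 of 3 corpus tumors above all other tumors. The difference of the corpus from the other sites was 1.14 ± 0.62 (SE) on the log2 scale and did not pass (edgeR adjusted p = 0.603). Ordered by mean, the sites otherwise followed each other within their spread. The neighbours whose samples did not overlap were greater curvature over normal for Gls2, normal over corpus for Glul, and antrum over lesser curvature and lesser curvature over normal for Slc43a2. For these neighbours and for the corpus tumors above, the share of all genes that part in the same way was not counted.

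Across the 12 tumors, Slc7a5 and Slc1a5 moved together and with Myc, and Glul moved against it. The library order in each of these pairs was examined by Pearson's r and Spearman's rho on log2 CPM, with 100000 permutations and adjustment over 13 relations. The genes were chosen with their tumor levels known, so these p-values describe these libraries and are not independent evidence. How many of all genes reach such r with Myc was not counted. Slc7a5 with Slc1a5 gave r = 0.93 (permutation p = 2e-05, adjusted 0.00026) and rho = 0.91 (p = 0.00012, adjusted 0.00052). Myc with Slc7a5 gave r = 0.91 (permutation p = 7e-05, adjusted 0.000455) and rho = 0.88 (p = 0.00039, adjusted 0.00127).

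Myc with Slc1a5 gave r = 0.87 (permutation p = 0.00028, adjusted 0.00091) and rho = 0.93 (p = 4e-05, adjusted 0.00052). Myc with Glul gave r = -0.90 (permutation p = 0.00012, adjusted 0.00052) and rho = -0.92 (p = 0.00012, adjusted 0.00052). Without the 2 tumors farthest from the median of the measure named first in each pair, r was 0.90, 0.87, 0.84 and -0.84 for the pairs Slc7a5 with Slc1a5, Myc with Slc7a5, Myc with Slc1a5 and Myc with Glul. Centered on site means, it was 0.95, 0.90, 0.91 and -0.89. Without greater curvature tumor 2 and corpus tumor 1, it was 0.90, 0.84, 0.79 and -0.82 (adjusted permutation p 0.00351, 0.013, 0.022 and 0.0166). The permutations treated the tumors as exchangeable, and the values were not centered on replicate number. No label says whether samples of the same number share an animal, so these p-values may overstate the evidence. The labels also do not say whether reads of the MycT58A allele were counted as Myc.

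The other 9 relations missed the threshold on log2 CPM. Gls2, unlike Glul, gave r = 0.12 with Myc (permutation p = 0.701, adjusted 0.701; rho = 0.10, p = 0.765, adjusted 0.765). Myc gave r = 0.13 with Slc38a2, -0.49 with Slc7a11, 0.43 with Slc3a2 and 0.34 with Slc43a2 (adjusted permutation p from 0.189 to 0.701). Slc3a2 gave r = 0.55 with Slc7a5 (permutation p = 0.0661, adjusted 0.167) and -0.54 with Slc7a11 (adjusted permutation p = 0.167). Gls2 with Glul gave r = -0.33 (permutation p = 0.292, adjusted 0.345).

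Levels of stomach cell markers moved with the same genes over the tumors. As a description over the 12 libraries, which share depth and composition, the summed parietal markers had r = -0.93 with Myc and 0.94 with Glul. They had -0.90 with Slc7a5 and -0.86 with Slc1a5. Chief cell markers were much alike, at -0.89 with Myc and 0.89 with Glul. Pit and neck mucous markers had -0.83 and 0.88, and epithelial markers -0.84 and 0.88. Enteric neuron and glia markers went the other way, at 0.875 with Myc and -0.85 with Glul. The relations were thus not particular to parietal cells. 7 proliferation genes had r = 0.90 with Myc, -0.89 with Glul, 0.90 with Slc7a5 and 0.87 with Slc1a5. Gls2 had r = -0.05 with the parietal sum and 0.82 with the sum of 7 neuroendocrine markers, which ran from 198 to 5161 CPM in tumors and from 212 to 858 in normal stomach. In all tumors against normal, parietal markers were called lower in 4 of 7 genes and 0 higher, and neuroendocrine markers in 0 of 7 in either direction. The part of cell makeup in these relations was not tested.

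**Figure D3:**
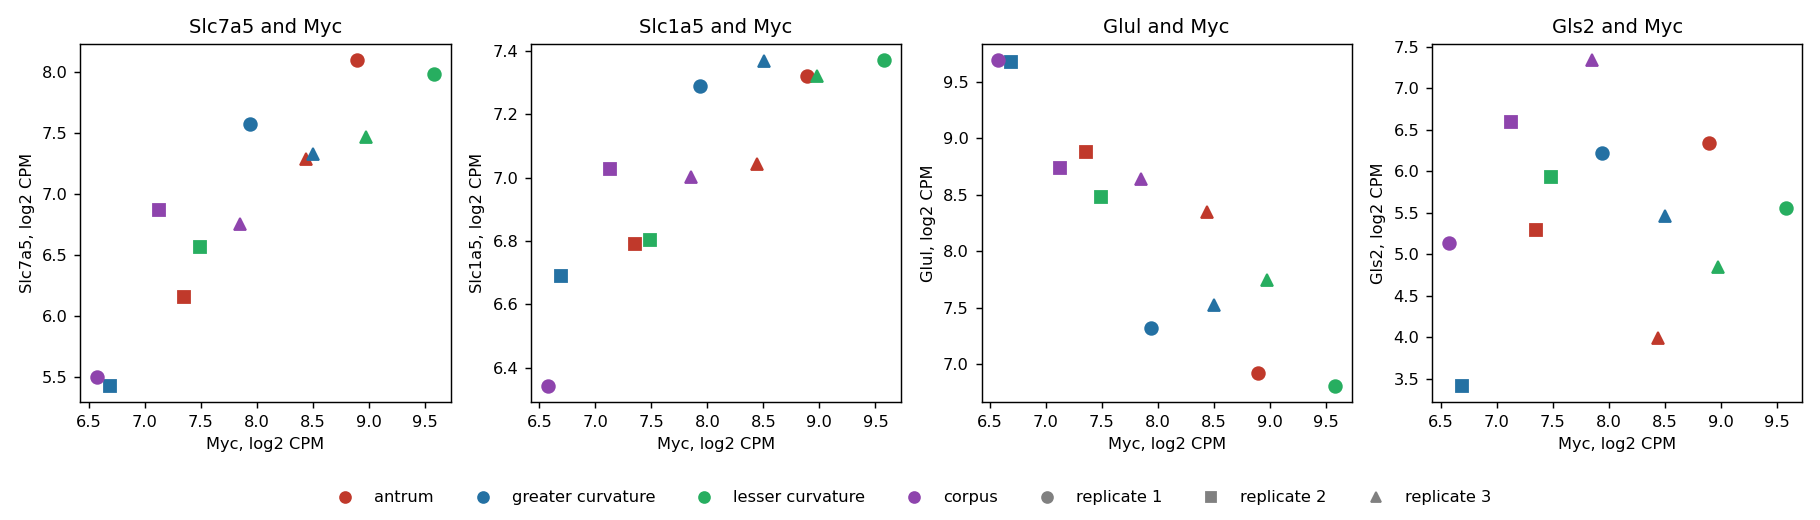
Log2 CPM of Slc7a5, Slc1a5, Glul and Gls2 (vertical axes, one panel each) against log2 CPM of Myc (horizontal axis) in the 12 tumors, with color for the site and marker for the replicate. Slc7a5 (r = 0.91) and Slc1a5 (r = 0.87) climb with Myc, Glul descends (r = -0.90) and Gls2 shows no order (r = 0.12), with greater curvature tumor 2 and corpus tumor 1 at the low end of Myc.

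The genes around these 8 were taken as 8 lists of 136 symbols in all, of which 131 were tested. In all tumors against normal, 27 were called higher and 26 lower by edgeR's quasi-likelihood test (16.2% and 15.7% of all genes), with a median log2 fold change of -0.08 against -0.04 over all genes. The split differed with the scaling: on TPM with limma, where the median gene moved to 0.43, 59 were called higher and 3 lower, or 95.2% of calls higher against 50.9%. Without normal replicate 2 the counts were 12 and 18, and without normal replicate 3 they were 11 and 16. Without the 2 tumors that lay among the normals they were 38 and 32. The list genes given with values below were mainly those with the smallest p of their list in this same contrast. Their small p and their separation from the normals follow in part from that choice. Over all genes, 9.58% had all 12 tumors above all 3 normals and 6.65% had all 12 below.

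The amidotransferases, which take nitrogen from glutamine, had 5 of 10 higher (Ppat, Pfas, Gmps, Cad and Ctps, all of nucleotide synthesis) and 2 lower (Gfpt1 of hexosamine synthesis and Asns, asparagine synthetase), with a list median of 0.69. The 7 proliferation genes were all called higher too, with summed CPM of 584 to 1757 in tumors and 203 to 389 in normal stomach. Transcripts encoded by mitochondria, 6 of 9 of them called lower, summed to 32512 to 62202 CPM against 66006 to 115702, and the part of either in the list results was not tested. Pfas, a step of purine synthesis, went from 25 ± 7.41 to 107 ± 43.6 CPM (SD). Its log2 fold change was 2.06 ± 0.40 (SE) at an edgeR adjusted p of 0.00497, and 12 of 12 tumors lay above the normals. Cad, which starts pyrimidine synthesis, rose by 1.73 ± 0.34 (edgeR adjusted p = 0.00508) and Ctps, CTP synthase, by 1.63 ± 0.36 (edgeR adjusted p = 0.00782), each in 12 of 12. Gfpt1 fell by 1.60 ± 0.44 (edgeR adjusted p = 0.0187), with 11 of 12 tumors below the normals, a call lost without normal replicate 1. Asns had -0.48 ± 0.13 (edgeR adjusted p = 0.0192), lost without normal replicate 3 and turned to 0.10 on TPM.

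Of 15 enzymes that make or use glutamate and proline, 5 were higher, among them Psat1, Aldh18a1 and Pycrl, and 5 were lower (Got1, Gpt, Gpt2, Oat and Aldh4a1), with a median of 0.08. Psat1, the aminotransferase of serine synthesis that uses glutamate, rose from 32.8 ± 13.1 to 119 ± 41.4 CPM, a log2 fold change of 1.83 ± 0.37 (edgeR adjusted p = 0.00595, 12 of 12 tumors above). Gpt, an alanine aminotransferase, went from 103 ± 8.85 to 24.1 ± 16.5 CPM, and so fell by 2.23 ± 0.48 on the log2 scale (edgeR adjusted p = 0.00697, 12 of 12 below). The higher set included Aldh18a1 and Pycrl, which lead to proline, and the lower set included Oat and Aldh4a1, which link ornithine and proline to glutamate.

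Of 28 other amino acid carriers tested, 6 were higher (Slc1a1, Slc7a1, Slc7a2, Slc7a6, Slc38a1 and Slc38a4) and 4 lower (Slc3a1, Slc6a19, Slc7a8 and Slc38a9), with a median of 0.13. Slc38a1, which encodes the glutamine carrier SNAT1, went from 64.7 ± 19.9 to 191 ± 57.6 CPM, a log2 fold change of 1.53 ± 0.31 (edgeR adjusted p = 0.00586, 12 of 12 above), where its relative Slc38a2 had 0.05. Slc7a8, which encodes LAT2, another light chain of 4F2hc, went from 131 ± 44.3 to 28.3 ± 26.0 CPM and fell by 2.48 ± 0.51 (edgeR adjusted p = 0.00594, 11 of 12 below), where Slc7a5 had 1.54. Slc7a1, a carrier of cationic amino acids, rose by 0.82 ± 0.19 (edgeR adjusted p = 0.00987). The call of Slc6a19 (-5.40, edgeR adjusted p = 0.00466) rested on normal replicate 2 with 23.6 CPM and was lost without it (-0.51, adjusted p = 0.723). Among 3 mitochondrial carriers tested, Slc25a22, which takes glutamate into mitochondria, was higher (0.51 ± 0.13, edgeR adjusted p = 0.0134) and Slc25a12, an aspartate-glutamate carrier, lower (-0.58 ± 0.18, edgeR adjusted p = 0.0312), a call lost without any 1 of the 3 normal samples.

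Genes of glutathione and cystine use, the pathway that Slc7a11 feeds, had 0 of 19 higher and 4 lower (Gclm, Ggt5, Chac1 and Hmox1), with a median of -0.63. Chac1, which degrades glutathione, went from 8.47 ± 6.62 to 2.37 ± 1.24 CPM and fell by 1.87 ± 0.47 (edgeR adjusted p = 0.0131, 10 of 12 below). Without normal replicate 2 it had -1.04 and was not called (edgeR adjusted p = 0.171). The Gclm call was lost without normal replicate 3, and the Ggt5 call without normal replicate 1 or 3. The 4 lower calls of this list were all lost on TPM. Nqo1, a quinone reductase, had 731 ± 297 and 206 ± 169 CPM, with 12 of 12 tumors below the normals, and did not pass (-2.03, edgeR adjusted p = 0.0779). It passed with DESeq2 (adjusted p = 0.046) and, by edgeR, without greater curvature tumor 2 (adjusted p = 0.0498). Hmox1, which degrades heme, had -1.14 (edgeR adjusted p = 0.0455), turned to 0.19 without normal replicate 2 and was not called without any 1 of 10 tumors. Nfe2l2, which encodes NRF2, had -1.14 and did not pass (edgeR adjusted p = 0.166).

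The amino acid stress response, driven by ATF4, had 0 of 13 higher and 3 lower (Ddit3, Atf3 and Nupr1), with a median of -0.20. Nupr1, a stress-induced chromatin protein, fell by 1.58 ± 0.37 (edgeR adjusted p = 0.0093), with 8 of 12 tumors below the normals. Without normal replicate 1 it had -0.87 and was not called (edgeR adjusted p = 0.107). The Ddit3 call was lost without normal replicate 1 or 2, and the Atf3 call without normal replicate 2 (-0.54, edgeR adjusted p = 0.451) or 3 and without any 1 of 6 tumors. The 3 lower calls of this list were also lost on TPM. Atf4 itself had -0.35 and did not pass (edgeR adjusted p = 0.0741).

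Of 23 genes through which mTORC1 senses amino acids, 3 were higher (Rragb, Castor2 and Depdc5) and 7 lower (Rragc, Lamtor1, Lamtor2, Lamtor4, Castor1, Flcn and Fnip1), with a median of -0.16. Fnip1, a partner of folliculin, went from 58.5 ± 9.20 to 30.6 ± 4.70 CPM and fell by 0.93 ± 0.16 (edgeR adjusted p = 0.00277, 12 of 12 below), a call lost on TPM (-0.33, limma adjusted p = 0.11). The list holds activators and inhibitors: Castor1 senses arginine and restrains mTORC1, while the Lamtor proteins anchor it to the lysosome. Cytosolic aminoacyl-tRNA synthetases, which load amino acids for translation, had 7 of 20 higher (Eprs, Farsa, Hars, Iars, Kars, Rars and Vars) and 0 lower, with a median of 0.40. Kars rose from 98.0 ± 4.77 to 213 ± 53.5 CPM, by 1.11 ± 0.25 (edgeR adjusted p = 0.00779, 12 of 12 above). The Farsa call was lost without any 1 of the 3 normal samples and the Eprs call without normal replicate 2 or 3.

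**Figure D4:**
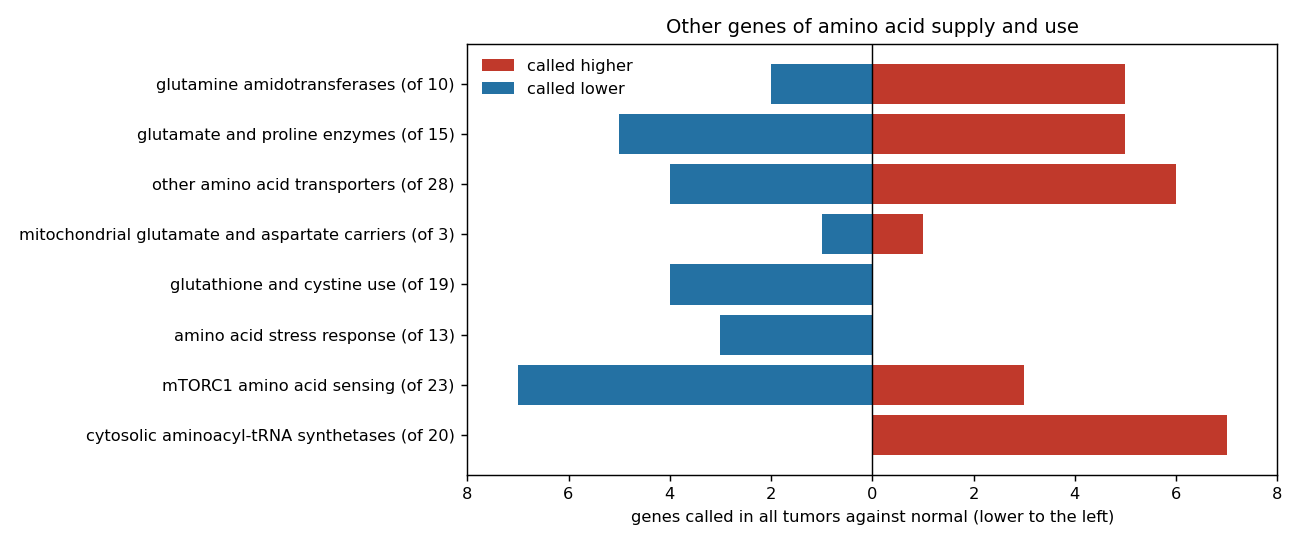
Number of genes called higher (right) and lower (left) in all 12 tumors against 3 normal samples by edgeR at an adjusted p under 0.05, for 8 lists with the number tested in brackets. Amidotransferases show 5 of 10 and synthetases 7 of 20 higher, and glutamate and proline enzymes 5 of 15 in each direction. Glutathione, stress and mTORC1 sensing genes show 4 of 19, 3 of 13 and 7 of 23 lower. Of all genes, 16.2% were called higher and 15.7% lower. On TPM with limma the 7 lower calls of glutathione and stress genes are lost. The split of all lists moves there from 27 and 26 to 59 and 3, where 37.3% and 3.58% of all genes were called.

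By site, against the shared normals, 18 of the 131 were called higher and 10 lower in the antrum (9.59% and 5.08% of all genes). At the greater curvature 10 and 5 were called (6.5% and 2.76% of all genes), and at the lesser curvature 31 and 27 (18.2% and 15.3%). In the corpus 1 (Pycrl) was higher and 1 (Fnip1) lower (2.35% and 1.19%). Without greater curvature tumor 2 and corpus tumor 1, the greater curvature had 40 calls in place of 15 and the corpus 14 in place of 2. Between sites, 0 of the 131 were called in any of the 6 tests by edgeR, and 1 to 18 had an unadjusted p under 0.05.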

How the data were processed

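Bulk RNA-seq of 15 mouse stomach samples was used. The authors deposited gene-level estimated counts, not normalized, and a second table headed FPKM whose columns each sum to 1e+06, so that its values are treated as TPM, the deposited values being used for ranks and ratios between genes. The submitters' processing notes name bcl2fastq 2.19, kallisto 0.44.0, sleuth, DESeq2 and GRCm38.p6, without their roles. No batch or date is given in the sources used here.

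Estimated counts were converted to whole numbers, and genes were kept by edgeR's filterByExpr (minimum count 10). The 26 entries with blank symbols or symbols turned into dates (0.116% of counts) were treated like other genes. They were left out only of the candidates for genes most like each member. The test was edgeR 4.0.16 (quasi-likelihood, trimmed mean factors, R 4.3.3) over all 5 groups with site contrasts, with Benjamini-Hochberg adjustment and a threshold of 0.05; the scripts were tested on simulated data. Alternatives were DESeq2 1.42.0 and its size factors, no filter, a replicate block, only the groups compared, limma 3.58.1 on log2(TPM + 1) where at least 3 samples reached 1 TPM, and leaving out each sample. Leaving out greater curvature tumor 2 and corpus tumor 1 together was chosen after seeing the data. Totals of 7957165 to 21564972 counts make 1 count worth 0.0478 to 0.112 CPM, and counting error is only part of the spread between samples. No 2 libraries were duplicates.

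The 8 genes, the lists and the tests were chosen with earlier results of these data known. Named genes were the up to 5 genes with the smallest p in each list, plus Myc, Rb1, Trp53, Pou2f3, Atf4 and Nfe2l2, and the 2 genes most like each member by r over the 12 tumors; other called list genes are named beside their counts, chosen after their values were seen, and some genes of the lists are not reported here. Relations use log2 CPM with a prior count of 2.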

Additional observations from a re-analysis of the deposited data

Results flagged for a closer look

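Slc43a2 lay on different sides of the normal mean in different sites. At the greater curvature 2 of 3 tumors lay below all normals, and edgeR called no lower level there. Every antrum tumor lay above the normal mean of 48.4 CPM and every greater curvature tumor below it, and the log2 fold changes of these sites differed by 1.27. Every lesser curvature tumor also lay above that mean, and its log2 fold change differed from that of the greater curvature by 0.64. The test among the 4 sites gave an edgeR adjusted p of 0.467 and a DESeq2 adjusted p of 1.43e-07, and over the alternatives run with edgeR or limma the adjusted p of antrum against the other sites ranged from 0.138 to 0.9999. The pair of differences shares the greater curvature tumors and the normal samples. Groups of 3 samples were too small to look for a sample far from the others.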

How the results depend on the processing

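Gls2, Slc1a5, Slc7a5 and Slc43a2 stayed higher and Glul lower in all tumors under every alternative run; Slc7a11 (0.36 without normal replicate 2) and Slc3a2 (0.40 on TPM) changed sign, and Slc38a2 did so without normal replicate 3 (-0.09). On TPM with limma, 59 of the 129 list genes tested were called higher and 3 lower (37.3% and 3.58% of all genes). On counts, 27 and 26 of 131 were called. Site counts in either direction were, for the antrum (28), 46 with DESeq2, 18 without the filter and 9 with only the groups compared. For the greater curvature (15) they were 40, 6 and 0, then 34 on TPM and 40 without greater curvature tumor 2 and corpus tumor 1. For the corpus (2) they were 20, 1 and 0, and 14 without those tumors. Among the 4 sites 1 member was called by DESeq2, whose share of all genes called there was not counted. Leaving out each sample gave 11 to 36 higher and 16 to 31 lower calls, 0 to 36 calls in the antrum, 0 to 39 at the greater curvature, 25 to 66 at the lesser curvature and 0 to 9 in the corpus, and 0 to 0 members among sites. Asns turned to 0.10 and Atf4 to 0.21 on TPM, and Hmox1 ran from -1.52 to 0.19 as each sample was left out. Slc3a2 with Slc7a5 passed on TPM (r = 0.90), centered on site means (0.68) and without greater curvature tumor 2 and corpus tumor 1 (0.87). Centering brought Gls2 with Glul (-0.72) and Myc with Slc3a2 (0.66) past the threshold, and TPM brought Myc with Slc38a2 (0.72) and with Slc3a2 (0.86). The cause of these changes was not tested. Pairing was taken as given only if every same-numbered pair correlated above 0.1. These correlated between -0.57 and 0.69 (median 0.17, 30 pairs, against -0.07 for different numbers), so the block was not used for the results. A rule on every pair can fail where pairing is real, so it does not decide whether same-numbered samples are paired. As a hint from the data and not the design, 10 of 15 samples correlated best with their own number. With a replicate block, 34 list genes were called higher and 26 lower (17.9% and 17.6% of all genes), with 51 of the 53 calls kept. Under the block Nqo1 passed (edgeR adjusted p = 0.0479) and Hmox1 (0.0876) and Atf3 (0.0502) did not. Only the groups compared could not differ for all tumors, where the fit is the same. Low depth limits Gls2 in normal stomach (18 to 100 counts) and Slc7a11 (24 counts in antrum tumor 1).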

Other observations

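Over the 12 tumors, each member was set beside the genes with the most similar log2 CPM among 11613 candidates, as a description. Slc7a5 was closest to Tomm20 and Orc6 (r = 0.99 each), Tomm20 encoding a receptor of mitochondrial protein import and Orc6 a subunit of the complex that marks replication origins. Glul was closest to Net1 and Pttg1ip (r = 0.99 each), and Slc1a5 to Slc9a5 and Zfp30 (0.98 each). Gls2 was closest to Ankle1 and Rab11fip4 (0.93 each). Of these, Ankle1 had 3.46 ± 0.895 CPM (SD, n = 3) in normal stomach and 14.6 ± 4.40 in tumors, with 12 of 12 above, while Rab11fip4 had 77.5 ± 44.2 and 104 ± 31.9 with 3 of 12 above. Slc3a2 was closest to Timm8b (0.95) and Uqcrq (0.92), Slc7a11 to Il1rl1 (0.95) and Acsbg1 (0.94), Slc43a2 to Map1a (0.90) and Clstn2 (0.88), and Slc38a2 to Gnb4 (0.87) and Phf13 (0.83). Il1rl1, which encodes the receptor of interleukin 33, was high in normal replicate 2 (55.7 CPM against 2.94 and 4.36), the sample where Slc7a11 was high too. The points share library, depth and cell makeup.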
